A study of Mus musculus with 6 samples.

Results

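Activated fibroblast and contractile genes of the mouse host were examined in tissue from livers that carried human hepatocellular carcinoma (HCC) cells. The set held 10 genes, chosen by name from the 56884 genes of the mouse count table: the surface markers Pdgfra, Thy1, Pdpn and Fap, the matrix genes Postn, Tnc and Lum, and the contractile genes Acta2, Tagln and Myl9. All 10 were found by symbol, all 10 had reads in every library, and all 10 were among the 18018 mouse genes that passed the filter of 10 counts in total. Per mouse count, every one of the 10 was lower in the libraries labelled siAATF than in those labelled siControl. The sizes ran from 6.97-fold for Tagln to 152-fold for Tnc.

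Fibroblasts of healthy liver are few and quiet, and they lie around portal tracts and veins, while stellate cells rest in the space beside the sinusoids. In injured liver and in tumors such cells can turn into cancer-associated fibroblasts or myofibroblasts, which lay down collagen, periostin and tenascin and take on smooth muscle actin and its partners, so that they can contract. TGF-β and platelet-derived growth factors are the best known signals for this change. None of the 10 genes belongs to fibroblasts alone, since vascular smooth muscle and pericytes also carry the contractile genes, T cells carry Thy1, and lymphatic endothelium carries Pdpn.

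The 6 libraries came from athymic nude BALB/c (nu/nu) males, 6 weeks of age per the labels, which lack a thymus and therefore mature T cells. All of them had QGY-7703 cells, a human HCC line, implanted in the liver, and received an adeno-associated virus of serotype 8 (AAV8) by tail vein 1 week later, with a further 3 weeks of follow-up. The 3 siControl libraries carry the genotype label WT and had the control virus. The 3 siAATF libraries carry the label KD and had a virus with an siRNA against mouse Aatf under the thyroxine-binding globulin promoter, which is active in hepatocytes and not in fibroblasts. Nothing in the labels says that each library is a separate mouse, so p-values measure the spread between these samples, which may be technical.

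The groups differed in depth and in species before any gene was looked at. Mouse gene counts were 213022 to 913584 in siControl, where they made up 0.778% to 1.93% of all gene counts, and 11835898 to 42563694 in siAATF, where they made up 97.9% to 99.0%. A mouse gene without reads can still reach 3 counts, which amounts to 1.67 to 7.24 TMM-normalized CPM (the gene's mouse reads scaled to a common total) for a siControl library and to 0.103 to 0.604 CPM for a siAATF library, as far as counting error goes. Whether reads of the human counterparts were placed on the mouse genes was not tested, which matters most for genes with a few counts in the mostly human siControl libraries. Transcripts of Aatf itself were not lower in the libraries labelled siAATF, where its TMM-normalized level was 13.2, 22.0 and 18.8 CPM beside 9.62, 2.41 and 12.8 CPM under siControl (log2 fold change 0.93 ± 0.47 (SE), adjusted p = 0.152). The mouse RNA of the libraries also differed in its hepatocyte share. The summed level of 10 hepatocyte markers, all of them detected in both groups, ran from 7755 to 18458 CPM under siControl and from 54582 to 170462 CPM under siAATF, and all 10 had a higher fitted level in siAATF, 9 of them past the test. The part of this difference in the results below was not tested, and treatment and tissue makeup cannot be told apart in this design. Nor can fewer cells of a type and less RNA per cell be told apart in bulk RNA.

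For that reason the genes are given on a pair of scales. The first is TMM-normalized CPM of mouse counts, which sets a gene against the other mouse RNA of its library. The second is CPM of all gene counts, those of human genes included, which sets it against the RNA of the whole piece of tissue. Fold changes are siAATF minus siControl on the log2 scale, with the standard error (SE) of the fit. Lists of 3 values follow replicates 1, 2 and 3. Each adjusted p is that of the edgeR quasi-likelihood test after Benjamini and Hochberg, taken over all mouse genes tested, and a gene counts as called at an adjusted p under 0.05. On the first scale 14.4% of all mouse genes tested were called lower, 17.6% were called higher and 32% were called in either direction. Of the 10 genes here, 10 were called lower and 0 higher. At an unadjusted p under 0.05 the counts were also 10 and 0. limma-voom called the same numbers, and DESeq2 called 9 lower and 0 higher, with no adjusted p for Acta2. The median log2 fold change of the 10 genes was -3.96, beside 0.50 over all mouse genes, and relative to that median the genes lay between -3.30 and -7.75.

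Pdgfra encodes the alpha receptor for platelet-derived growth factor and marks fibroblasts of most organs (ENSMUSG00000029231, chromosome 5 of GRCm39, 75312953 to 75358876). Its level was 32.1, 60.3 and 57.9 CPM under siControl and 5.86, 2.62 and 3.82 CPM under siAATF. The highest siAATF library was thus well under the lowest siControl library, and the fall was 11.7-fold (log2 fold change -3.55 ± 0.44 (SE), adjusted p = 0.000108). Thy1, also called CD90, is a small anchored protein of the cell surface that sits on fibroblasts, neurons and T cells (ENSMUSG00000032011, chromosome 9, 43954681 to 43959876). It measured 12.8, 48.3 and 23.96 CPM in siControl against 1.59, 0.806 and 0.443 CPM in siAATF, from 4 to 46 counts in each siAATF library. The groups did not overlap, with a log2 fold change of -4.72 ± 0.63 (SE, adjusted p = 0.000183). Of 8 T and NK cell markers tested, 5 were called lower as well, beside 14.4% of all mouse genes. The 10 on that list added up to between 14.4 and 44.6 CPM under siControl and between 3.55 and 12.03 CPM under siAATF, and their part in the Thy1 result was not tested. Without siAATF replicate 1 the log2 fold change of Thy1 was -5.49 (adjusted p = 0.000156).

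Pdpn encodes podoplanin, a mucin-like surface protein of activated fibroblasts and lymphatic endothelium (ENSMUSG00000028583, chromosome 4, 142994001 to 143026134). Levels of 16.8, 19.3 and 5.01 CPM in siControl stood against 0.414, 0.403 and 1.33 CPM in siAATF, resting on 2 to 24 counts a library. siControl replicate 3 was low and siAATF replicate 3 was high within their groups, yet the groups still did not overlap (log2 fold change -4.09 ± 0.75 (SE), adjusted p = 0.00123). Without siAATF replicate 3 the value was -4.83 (adjusted p = 2.88e-05). Fap, the gene of fibroblast activation protein, a surface serine protease that gives activated fibroblasts one of their names, was close to the floor throughout (ENSMUSG00000000392, chromosome 2, 62331287 to 62404419). It had 2, 1 and 5 counts under siControl and 2, 2 and 2 under siAATF, so the name-giving marker rested on 14 reads in all. Pooled over libraries and scaled by the TMM-normalized library sizes, its level was 20.1 times higher in siControl, with a counting interval at 95% of 6.11 to 70.2. The fitted log2 fold change was -3.83 ± 1.10 (SE, adjusted p = 0.0182). The call was lost without siAATF replicate 1 (-3.22, adjusted p = 0.0880) and without siAATF replicate 3 (-3.57, adjusted p = 0.0532). Without siAATF replicate 2 the value was -4.46 (adjusted p = 0.00746).

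**Figure D1:**
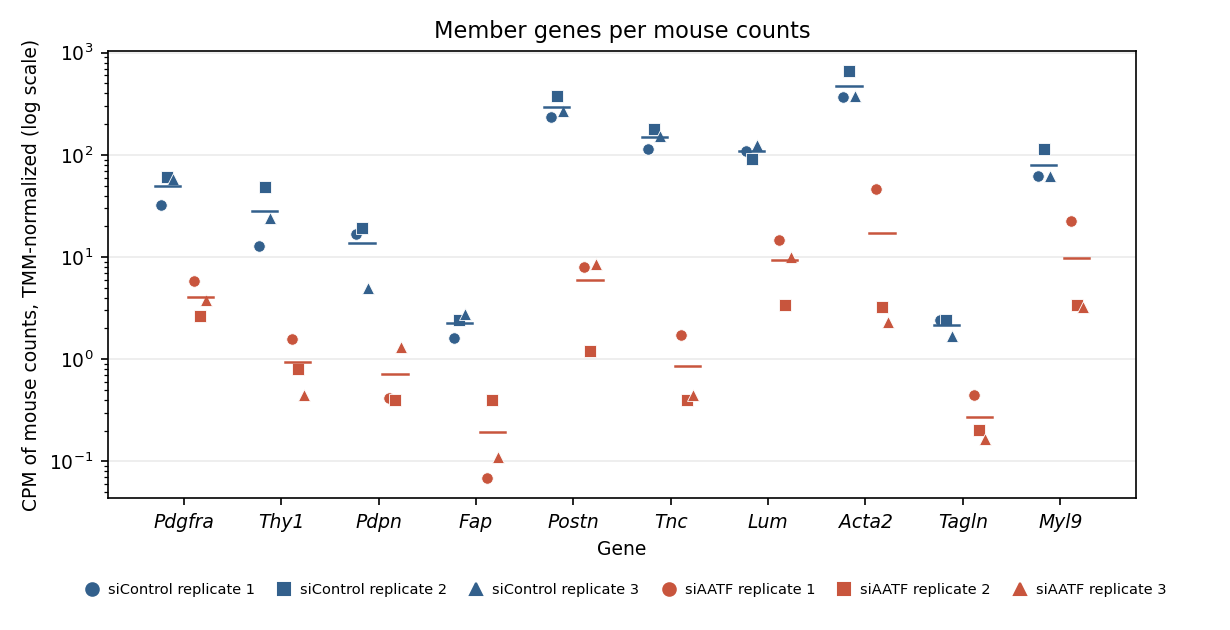
Level of the 10 genes in each library, as TMM-normalized CPM of mouse counts on a log axis, with genes along the horizontal axis, 1 marker per library and a bar at each group's mean. For every gene the 3 siControl markers lie above the 3 siAATF markers. For Acta2, Myl9 and Tnc, siAATF replicate 1 lies apart from the other siAATF libraries.

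The matrix genes held the largest fall of the set. Tnc encodes tenascin-C, a large hexameric glycoprotein that is rare in healthy adult tissue and appears in wounds and tumor stroma (ENSMUSG00000028364, chromosome 4, 63878022 to 63965252). Its level was 114, 181 and 152 CPM under siControl and 1.72, 0.403 and 0.443 CPM under siAATF. In the siAATF libraries this was 50, 2 and 8 counts among 11835898 to 42563694 mouse counts, so replicates 2 and 3 held only a few reads of it. The log2 fold change was -7.25 ± 0.64 (SE, adjusted p = 2.41e-05), which is 152-fold and the largest among the 10, and it was -8.34 without siAATF replicate 1 (adjusted p = 2.33e-05). Postn encodes periostin, a matricellular protein that binds integrins and collagen and is laid down by activated fibroblasts (ENSMUSG00000027750, chromosome 3, 54268530 to 54298458). It measured 233, 379 and 268 CPM in siControl and 7.996, 1.21 and 8.59 CPM in siAATF. siAATF replicate 2 was the low library here, with 6 counts, and the log2 fold change was -5.57 ± 0.68 (SE, adjusted p = 0.000101), or 47.6-fold.

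Lum encodes lumican, a small leucine-rich proteoglycan that spaces collagen fibrils, and it is made by resting fibroblasts as well as activated ones (ENSMUSG00000036446, chromosome 10, 97400990 to 97408565). Values of 109, 91.7 and 125 CPM in siControl fell to 14.6, 3.42 and 10.1 CPM in siAATF. The fall of 11.4-fold (log2 fold change -3.51 ± 0.51 (SE), adjusted p = 0.000285) was close in size to that of Pdgfra and far from that of Tnc. Read per length, which makes levels of different genes comparable, Lum was 0.528 ± 0.176 (SD, n = 3) times as high as Postn in siControl and 2.62 ± 1.12 times as high in siAATF, so that the order of these matrix genes turned. Every siAATF library had more Lum than Postn per length, from 1.58 to 3.81 times, and every siControl library had less, from 0.325 to 0.630 times. Postn over Tnc, per length, was 4.18 to 4.95 in siControl and 7.09 to 45.8 in siAATF.

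Acta2 encodes smooth muscle alpha-actin, the filament protein that defines myofibroblasts and vascular smooth muscle (ENSMUSG00000035783, chromosome 19, 34218490 to 34232990). It was the highest of the 10 genes per length in siControl, at 231 ± 81.5 (SD, n = 3) CPM per kilobase. Its level was 371, 661 and 377 CPM under siControl and 46.0, 3.22 and 2.33 CPM under siAATF. siAATF replicate 1, with 1335 Acta2 counts beside 16 and 42, was 16.6 times the mean of the other siAATF libraries, although it too lay under every siControl library. The log2 fold change was -4.75 ± 1.01 (SE, adjusted p = 0.00342), and it was -7.41 without siAATF replicate 1 (adjusted p = 4.34e-05). Myl9 encodes the regulatory light chain of smooth muscle myosin, whose phosphorylation switches contraction on (ENSMUSG00000067818, chromosome 2, 156617340 to 156623578). It measured 62.6, 113 and 61.8 CPM in siControl and 22.7, 3.42 and 3.27 CPM in siAATF, again with replicate 1 apart, at 6.79 times the mean of the other siAATF libraries. The log2 fold change was -2.95 ± 0.69 (SE, adjusted p = 0.00596) with all libraries and -4.52 without siAATF replicate 1 (adjusted p = 7.05e-05).

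Tagln encodes transgelin, or SM22-alpha, an actin-binding protein and an early marker of smooth muscle (ENSMUSG00000032085, chromosome 9, 45840917 to 45847356). It is usually abundant where Acta2 is, but here it had 3, 1 and 3 counts under siControl and 13, 1 and 3 under siAATF. Of its 1595 exon bases, 971 (60.9%) overlap other genes on the opposite strand, among them Pcsk7, and whether the counting used strand is not stated, so its count is uncertain. Pooled and scaled in the same way, its level was 6.20 times higher in siControl, with a counting interval at 95% of 2.17 to 15.7. The fitted log2 fold change of -2.80 ± 0.99 (SE) passed narrowly (adjusted p = 0.0465). When any of the 6 libraries was left out the value lay between -3.35 and -2.41 and was not called (adjusted p between 0.0650 and 0.146). No other gene of the set shared more than 5.54% of its exon bases with another gene.

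Promoters of the contractile genes are known for a few short elements. The CArG box binds serum response factor, and the MCAT element (GGAATG, searched on both strands) binds TEAD factors. The CArG box was searched only in its strict form, as in CCATAAAAGG, with nothing but A or T between CC and GG. Variants with a C or G inside could not be found, so a promoter without a match may still hold one. They were searched from 250 bases before to 50 bases after the start of the transcript, in GRCm39. Starts are those of GENCODE release 39, while the gene coordinates above are those of the deposited table, which was counted on release 33, so a start can lie outside the latter. The CArG box was present in 2 of the 10 promoters (Thy1 and Tagln), beside 335 of 21757 protein-coding promoters (1.54%). The MCAT element was present in 2 of the 10 (Thy1 and Acta2), beside 3043 of 21757 (14%). In the list of 21 further contractile genes the counts were 3 for the CArG box (14.3%) and 9 for the MCAT element (42.9%), and in the list of 24 further fibroblast genes they were 1 (4.17%) and 7 (29.2%). A match is only a run of letters, and a window without one says nothing about the factor. The stretches below are read 5′ to 3′ on each gene's own strand, with the motifs in capitals. They are shown for the promoters that held a motif and for that of Tnc, which held neither and belongs to the gene with the largest fall.
Tagln, chr9:45847405-45847554, minus strand, CArG box from base -64: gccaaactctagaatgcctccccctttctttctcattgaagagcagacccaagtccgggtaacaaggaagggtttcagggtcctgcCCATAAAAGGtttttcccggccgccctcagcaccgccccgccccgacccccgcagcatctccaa
Thy1, chr9:43954332-43954531, plus strand, MCAT element from base -181 and CArG box from base -107: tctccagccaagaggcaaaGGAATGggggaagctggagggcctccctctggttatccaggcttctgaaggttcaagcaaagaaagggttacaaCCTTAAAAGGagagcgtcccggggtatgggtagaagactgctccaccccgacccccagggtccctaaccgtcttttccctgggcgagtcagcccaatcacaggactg
Acta2, chr19:34232991-34233140, minus strand, MCAT element from base -65: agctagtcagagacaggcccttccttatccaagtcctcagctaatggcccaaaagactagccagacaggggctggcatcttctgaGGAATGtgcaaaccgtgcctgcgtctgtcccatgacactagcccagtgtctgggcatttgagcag
Tnc, chr4:63965444-63965593, minus strand, neither motif: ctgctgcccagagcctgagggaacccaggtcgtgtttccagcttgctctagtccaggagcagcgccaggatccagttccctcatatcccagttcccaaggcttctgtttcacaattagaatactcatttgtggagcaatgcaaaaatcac
Tagln and Thy1, which share the CArG box in this window, had log2 fold changes of -2.80 and -4.72 on the mouse scale, and the further contractile genes that hold it are Cnn2, Vcl and Srf.

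Set against all gene counts, the picture of the 10 genes was different. On that scale the median log2 fold change of all mouse genes was 4.66 with mouse counts a small part of the siControl libraries and nearly all of the siAATF libraries. There 0.66% of mouse genes were called lower, 87.2% were called higher and 87.9% either way. Of the 10 genes, 1 was called lower (Tnc), 1 was called higher (Myl9) and 8 were not called, with a median log2 fold change of 0.20. Relative to the median of all genes they lay between -3.01 (Myl9) and -7.47 (Tnc), and their median was -4.46 on both scales. A change of library size shifts all mouse genes by nearly the same amount, so this likeness follows from the scaling. Summed over the 10 genes, the level was 32.6, 23.6 and 35.7 CPM of all gene counts under siControl and 68.5, 6.61 and 15.6 under siAATF. The siAATF libraries thus bracketed the siControl libraries, whereas on the mouse scale the sums stood apart, at 954 to 1559 CPM under siControl and at most 101 CPM under siAATF.

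Tnc was the gene of the set that was called lower on both scales. It measured 3.89, 2.74 and 5.03 CPM of all gene counts in siControl and 1.16, 0.165 and 0.226 in siAATF (log2 fold change -2.81 ± 0.74 (SE), adjusted p = 0.000234). The call held without any 1 library, with adjusted p between 4.4e-05 and 0.0104. The value then ran from -4.24 (without siAATF replicate 1) to -2.43 (without siAATF replicate 3). Postn had 7.94, 5.74 and 8.90 CPM of all gene counts under siControl and 5.40, 0.496 and 4.38 under siAATF. Its groups did not overlap, but the log2 fold change of -1.11 ± 0.64 (SE) was not called (adjusted p = 0.0939, interval at 95% from -2.37 to 0.15). Every siAATF library lay below every siControl library in 2 of the 10 genes (Postn and Tnc), which was so for 0.655% of all mouse genes, against 10 of 10 on the mouse scale, where it was so for 18.1%.

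The contractile genes on this scale hung on 1 library. Acta2 had 12.7, 10.01 and 12.5 CPM of all gene counts in siControl and 31.1, 1.32 and 1.19 in siAATF, so that siAATF replicate 1 was above and the other siAATF libraries were below every siControl library. With all libraries its log2 fold change was -0.06 (adjusted p = 0.932), and without siAATF replicate 1 it was -3.23 (adjusted p = 0.000537), a call. Myl9 had 2.14, 1.72 and 2.05 CPM in siControl and 15.3, 1.41 and 1.67 in siAATF. It was called higher with all libraries (log2 fold change 1.65 ± 0.66 (SE), adjusted p = 0.0149), and without siAATF replicate 1 the value was -0.35 (adjusted p = 0.688). Without siControl replicate 2 or 3 the value stayed near that of all libraries, at 1.57 and 1.68, but was not called (adjusted p = 0.0808 and 0.0560). Pdgfra, Thy1, Pdpn, Fap, Lum and Tagln had log2 fold changes between -0.23 and 1.46 on this scale, with adjusted p between 0.212 and 0.871. For Pdgfra the interval at 95% ran from -0.55 to 2.23 and for Thy1 from -1.89 to 1.44, so the missing calls do not show that the levels were alike. Without siAATF replicate 1, Thy1 was at -1.27, Lum at 0.10, Pdgfra at 0.22 and Tagln at 0.49. Pdpn and Fap were at 0.39 and 0.57 there, and none of these genes was called.

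**Figure D2:**
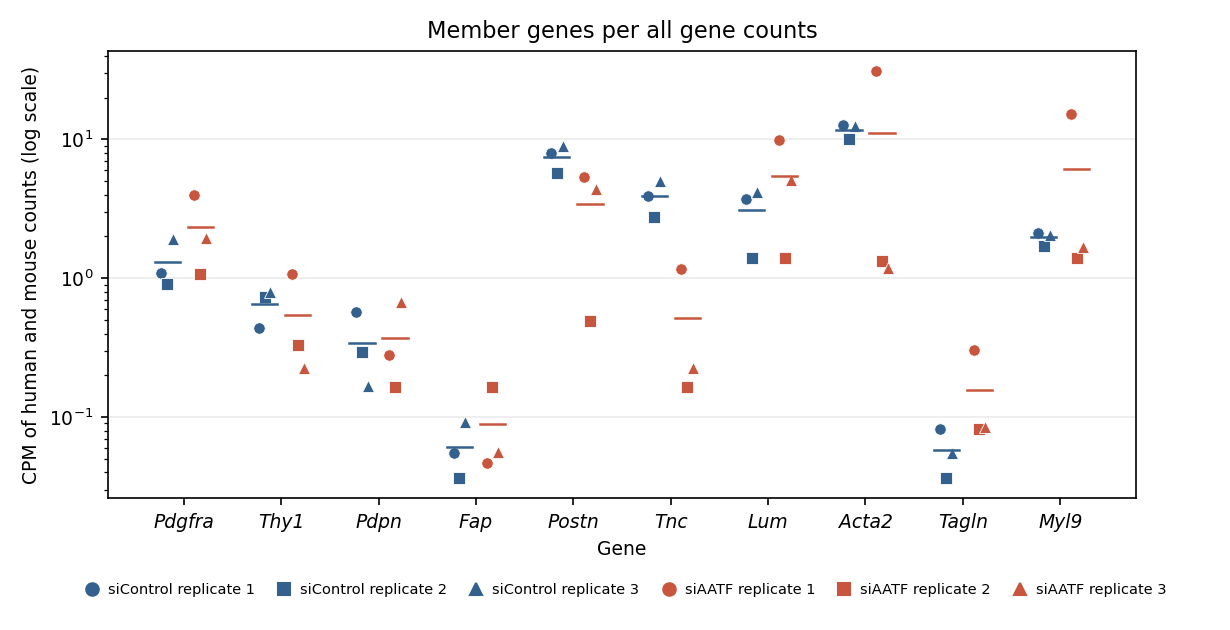
Level of the 10 genes in each library as CPM of human and mouse counts together, on a log axis, with genes along the horizontal axis, 1 marker per library and a bar at each group's mean. The groups are apart for Postn and Tnc, where siAATF is lower, and by less than 1 read for Tagln, with 1 to 13 counts a library. For Acta2 and Myl9, siAATF replicate 1 lies above all other libraries.

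**Figure D3:**
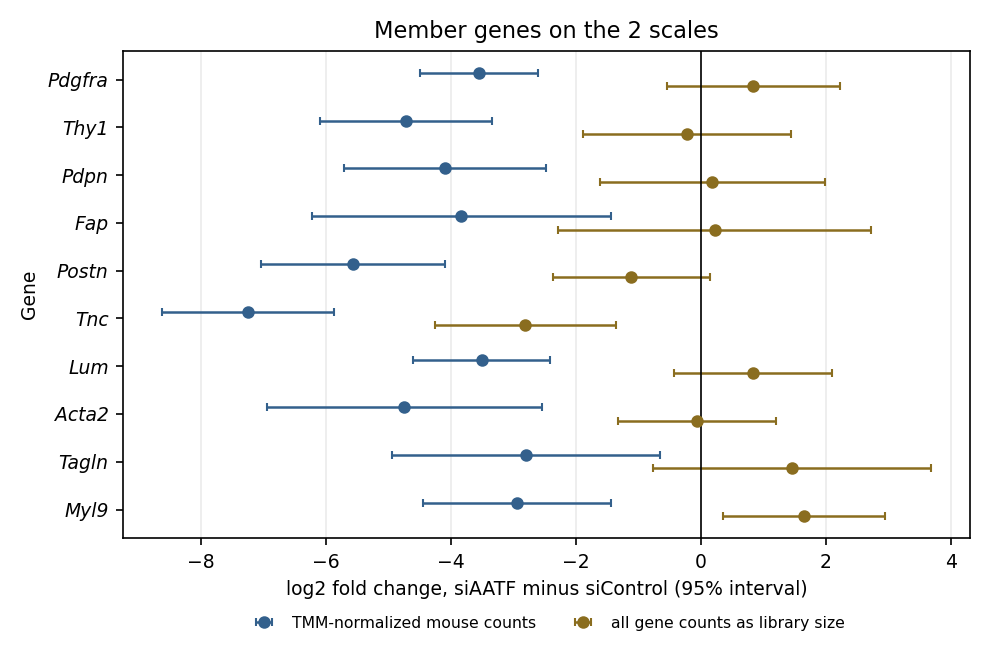
Fitted log2 fold change (siAATF minus siControl) of the 10 genes with its 95% interval, on the scale of TMM-normalized mouse counts and on that of all gene counts. All 10 intervals on the mouse scale lie below 0. On the other scale those of Tnc, below 0, and Myl9, above 0, leave 0 out.

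Another scale used the summed counts of 12 mesenchymal genes (collagens I, III, V and VI, Dcn, Sparc, Pdgfrb, Mmp2 and Bgn) as the library size. These genes did not move as one, with log2 fold changes from -3.55 to 3.81 on their own scale. Dcn alone gave 10405, 1558 and 4577 of the summed 21595, 2756 and 9424 counts in siAATF. In siControl it gave 546, 238 and 1373 of 15832, 7202 and 32855. The library size thus rested on different genes in the groups, which limits the calls on this scale. On this scale 0.533% of mouse genes were called lower, 89.7% higher and 90.2% either way. Tnc was called lower, Myl9 and Lum were called higher, and the other 7 genes were not called. The 10 genes had a median log2 fold change of 0.67 on this scale, where that of all mouse genes was 5.14. The mesenchymal genes themselves were called lower on the mouse scale in 11 of 12 cases, beside 14.4% of all mouse genes.

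The makeup of the set, as each gene's share of the 10 genes per length, did not overlap between the groups for Tnc, Myl9, Acta2 and Tagln. Tnc made up 4.01% ± 0.58 (SD, n = 3) in siControl and 0.517% ± 0.140 in siAATF, and the ranges of 3.60% to 4.68% and 0.415% to 0.677% were far apart. Myl9 made up 14.3% ± 1.19 in siControl and 33.6% ± 8.86 in siAATF, from 23.4% to 39.6%. Acta2 was the leading gene in siControl at 47.2% ± 2.88, while its share in siAATF spread from 9.24% in replicate 3 to 42.3% in replicate 1. The 3 contractile genes together held 61.8% ± 4.05 in siControl and 58.7% ± 23.7 in siAATF, a difference smaller than the spread of the siAATF libraries. With 3 libraries against 3, an exact permutation test cannot reach a p below 0.1, so these shares are given without one.

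The other contractile genes of smooth muscle were read beside Acta2, Tagln and Myl9. Of 21 further contractile genes 20 were tested, and on the mouse scale 14 were called lower and 0 higher (15 and 0 at an unadjusted p under 0.05, 14 and 0 by DESeq2 and by limma-voom), with a median log2 fold change of -2.51. Of all mouse genes 14.4% were called lower and 17.6% higher there. The largest changes were those of Actg2, smooth muscle gamma-actin (83.7 ± 30.9 CPM in siControl and 2.15 ± 3.04 in siAATF, log2 fold change -5.09), Cnn1, calponin 1 (40.0 ± 7.99 and 1.89 ± 2.35 CPM, -4.23), Cnn2 (159 ± 25.5 and 10.99 ± 2.24 CPM, -3.85) and Flna, the actin cross-linker filamin A (306 ± 53.9 and 21.6 ± 10.3 CPM, -3.81). Against all gene counts, 13 of the 20 were called higher, beside 87.2% of all mouse genes, with a median of 1.84 beside 4.66 for all genes. siAATF replicate 1 stood apart for part of this list, as it did for Acta2. In 6 of the 20 genes, and in 3 of the 10 of the set, it was at least 4 times the mean of the other siAATF libraries. This was so for 438 of 17935 mouse genes (2.44%). Actg2 was 14.3 times and Myh11, smooth muscle myosin heavy chain, 12.1 times that mean. The mark of 4 times was also reached by 2 of 9 portal fibroblast markers and 2 of 10 endothelial markers. For the contractile list, the median ratio of replicate 1 to that mean was below those of the endothelial, portal fibroblast, stellate cell and further fibroblast lists. It was above those of the hepatocyte and macrophage lists. Endothelial markers were also higher in that library, with a sum of 259 CPM over 10 genes beside 114 and 83.8 CPM in siAATF replicates 2 and 3. Whether that library held more vessel wall was not tested.

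Markers of other cells that hold contractile proteins were read beside the set. Of 8 skeletal muscle markers, 5 had no count in any siControl library (Ckm, Myh1, Myh4, Mylpf and Tnnc2), and Tnnc2 had none in siAATF either. The mouse depth of siControl was low, so these zeros do not show a group difference. The 8 together gave 0.802 to 2.79 CPM under siControl, from 1, 1 and 5 counts, and 1.45 to 14.1 CPM under siAATF. The highest value was that of siAATF replicate 2, with 70 counts beside 80 for the 10 genes of the set, and the part of such reads in the results was not tested. Of the pericyte markers, 5 of the 6 tested were called lower on the mouse scale, where 14.4% of all mouse genes were called lower and 17.6% higher. Their sums ran from 215 to 315 CPM under siControl and from 123 to 141 under siAATF. Among stellate cell markers 2 of 13 were called lower (Des and Hand2) and 2 higher (Colec11 and Vipr1), near the shares of all mouse genes in both directions. The sum of the stellate cell markers, from 391 to 478 CPM under siControl and from 241 to 376 under siAATF, differed far less than that of the 10 genes. Of 9 portal fibroblast markers 6 were called lower, with sums from 261 to 362 CPM under siControl and from 14.3 to 50.1 under siAATF. Against all gene counts 4 of 6 pericyte markers, 13 of 13 stellate cell markers and 5 of 9 portal fibroblast markers were called higher, on a scale where 87.2% of all mouse genes were. Relative to the median of all genes, the list medians were -2.91, -0.87 and -3.10 on the mouse scale and -2.77, -0.91 and -2.98 against all gene counts. The likeness between the scales follows from the scaling, which shifts all genes by nearly the same amount.

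**Figure D4:**
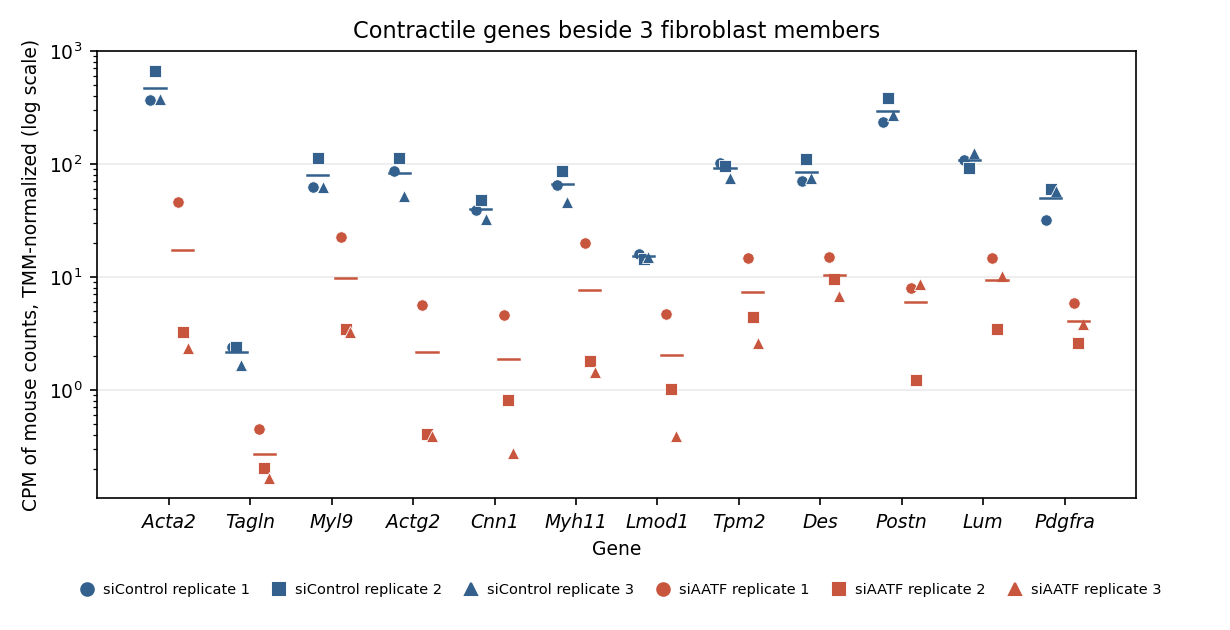
TMM-normalized CPM of mouse counts, on a log axis, for Acta2, Tagln, Myl9 and 6 further contractile genes beside Postn, Lum and Pdgfra, with 1 marker per library and a bar at each group's mean. In siAATF replicate 1 the contractile genes Acta2, Myl9, Actg2, Cnn1, Myh11 and Lmod1 lie well above the other siAATF libraries, whereas for Postn and Lum replicate 3 lies close to it.

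Fold changes of the actin isoforms were not tested against each other. Actb, the cytoplasmic beta-actin of all cells, measured 3500 ± 473 CPM in siControl and 1469 ± 83.1 in siAATF, and was not called (log2 fold change -1.25, adjusted p = 0.127), while Actg1 was called lower (-3.38, adjusted p = 0.00112). Per length, Acta2 was 0.125 ± 0.028 (SD, n = 3) times as high as Actb in siControl and 0.0283, 0.00203 and 0.00160 times in siAATF replicates 1 to 3, so that replicate 1 was again the high one. Acta2 over Actg2 differed little, at 3.90 ± 0.99 and 4.95 ± 0.80. Acta2 over Myh11 was 18.5 to 26.5 in siControl and 5.25 to 7.57 in siAATF. Among other relatives, Tagln2 (-3.99), the periostin paralog Tgfbi (-4.05), Pdgfrb (-3.61) and Myl12a (-1.82) were called lower. Dpp4 (2.62) and Dpp9 (1.27), of the protease family of Fap, were called higher. Pdgfra over Pdgfrb per length was 0.380 ± 0.094 in siControl and 0.386 ± 0.118 in siAATF, a difference smaller than the spread of the libraries. Lum over Dcn, a sister proteoglycan that was not called (-0.94, adjusted p = 0.144), was 0.126 to 0.197 in siControl and 0.00864 to 0.0324 in siAATF.

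Of 17 relatives tested, 6 were called lower and 2 higher on the mouse scale, beside 14.4% and 17.6% of all mouse genes. Against all gene counts 11 of 17 were called higher, beside 87.2% of all mouse genes. Not called on the mouse scale, besides Actb and Dcn, were Acta1, Myl12b, Dpp8, Tnxb, Fmod, Prelp and Kit.

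Ligands and receptors that act on or with the 10 gene products were read next. Pdgfb, a ligand for the receptor encoded by Pdgfra, was called lower on the mouse scale (39.1 ± 11.1 CPM in siControl and 0.967 ± 0.681 in siAATF, log2 fold change -5.14, adjusted p = 4.46e-05). Pdgfa was at 37.1 ± 9.67 and 34.4 ± 13.5 CPM with a log2 fold change of -0.08 (SE 0.39, adjusted p = 0.904), and neither Pdgfc nor Pdgfd was called. The TGF-β ligands Tgfb1 (-3.92), Tgfb2 (-2.82) and Tgfb3 (-4.31) and the receptors Tgfbr1 (-1.52) and Tgfbr2 (-3.83) were all called lower. Of the integrin genes whose products bind tenascin or periostin, Itgb3 (-3.19) and Itga9 (-2.14) were called lower, and Itgav, Itgb5 and Itga8 were not called. Itgam (-5.69) was also called lower, but 70.0% of its exon bases are shared with another annotated gene on the same strand. Clec1b, which encodes the platelet receptor of podoplanin, and Bmp1, a protease of procollagens, were not called.

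In all, 9 of these 18 genes were called lower and 1 higher on the mouse scale, beside 14.4% and 17.6% of all mouse genes. Against all gene counts 1 was called lower (Itgam) and 11 of 18 higher, where 87.2% of all mouse genes were called higher. Relative to the median of all genes the median of the list was -1.65 on the first scale and -1.58 on the second, a likeness that follows from the scaling. Tgfb1, for example, was -3.92 on the first scale and 0.40 (adjusted p = 0.562) on the second.

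Further genes of activated fibroblasts were then counted on the mouse scale, where 14.4% of all mouse genes were called lower. Of 24 such genes 22 were tested, and 16 were called lower, 6 were not called and 0 were called higher (18 and 0 at an unadjusted p under 0.05; 18 and 0 by DESeq2; 17 and 0 by limma-voom), with a median log2 fold change of -5.37. Cthrc1, a secreted protein of matrix-producing fibroblasts, had 19, 7 and 35 counts under siControl and 0 in each siAATF library, which makes it at least 306-fold lower, on the TMM-normalized scale with 3 counts allowed over the siAATF group. Col11a1, a minor fibril collagen seen in tumor stroma, had 6, 4 and 7 counts under siControl, 0 throughout siAATF, and was at least 85.3-fold lower on the same basis. In both bounds the siControl counts are taken as measured. Lox, a collagen cross-linking oxidase, measured 225 ± 40.2 CPM in siControl and 0.528 ± 0.230 in siAATF (log2 fold change -8.60), and Col1a1, the main chain of collagen I, 3405 ± 691 and 11.01 ± 2.91 CPM (-8.27). Against all gene counts 8 of the 22 were called lower and 5 higher. Cthrc1, Col11a1, Lox (-4.33) and Col1a1 (-3.88) were all among those called lower there, as Tnc was.

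The genes whose profile over the 6 libraries was most like the mean profile of the set were sought among 9460 mouse genes outside it with a mean of at least 50 counts. By the root mean square distance between centred log2 CPM values, the nearest were Unc5b (0.24), Cd93 (0.25), Ehd2 (0.25), Nxn (0.26) and Tpm4 (0.26). Unc5b and Cd93 encode surface receptors best known from endothelium, Ehd2 a caveolar ATPase and Tpm4 a tropomyosin. Unc5b measured 72.2, 91.7 and 80.8 CPM in siControl and 4.69, 2.01 and 2.38 CPM in siAATF. The likeness is measured over 6 libraries that fall into 2 groups, so the difference between the groups makes up most of it. Endothelial and macrophage markers were also lower on the mouse scale, where 8 of 10 and 8 of 8 were called, beside 14.4% of all mouse genes. Their sums were 562 to 786 against 83.8 to 259 CPM and 1559 to 4660 against 114 to 192 CPM. Against all gene counts, where 87.2% of all mouse genes were called higher, 6 of the 10 endothelial markers were, and the 8 macrophage markers were not called in either direction, with a median log2 fold change of -0.14.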

How the data were processed

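After trimming with Cutadapt, the authors mapped the reads with STAR 2.7.11 to the human and mouse genomes joined together, kept reads unique to 1 place and 1 species, and deposited the resulting featureCounts 2.0.1 gene counts as raw count tables, a separate one for each species. Whether strand was used is not given in the sources used here. The libraries were PCR-amplified (SMART-Seq), so the intervals of pooled counts and the limits set by 3 counts cover counting error only, whereas intervals of fitted changes include the spread between libraries. No count column was left unmatched.

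Mouse identifiers were named from GENCODE release 39, whereas the counting used release 33, and 561 of 56884 stayed unnamed. From the human counts 1 gene broken over 3 lines was left out. Counts were fitted with edgeR 4.0.16 (R 4.3.3, TMM, genes with at least 10 counts in total, group as the only term, quasi-likelihood test), after a test of the same script on simulated data. CPM uses TMM effective library sizes. Per-length values divide by the deposited gene length. Promoters were read from GRCm39 at the Ensembl-canonical start. Plots used matplotlib 3.10.9. The alternatives were DESeq2 1.42.0, limma-voom (limma 3.58.1), other scalings and filters, thinning, a replicate block and leaving out libraries.

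All 10 genes are named. From the lists of further fibroblast and contractile genes, those with the 4 largest changes among the called are named, and partners and relatives freely. Most marker lists are given as counts and sums only, which departs from the rule. The genes of the set and all lists were chosen with earlier results of these data known. Myh11, Lmod1, Des, Hand2, Colec11, Vipr1, Vcl, Srf and the muscle genes are named outside that rule, after their values or motifs were seen.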

Additional observations from a re-analysis of the deposited data

How the results depend on the processing

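On the mouse scale the genes stayed lower in siAATF in every fit that tested them: all 10 were called by limma-voom, by RLE, upper-quartile and library-size scaling and at an unadjusted p under 0.05 with a log2 fold change beyond 2, 9 by DESeq2 and without a filter, and 8 of 8 tested after thinning to the smallest mouse total. Thinning moved the median of all mouse genes to -0.30 and gave larger falls for Thy1 (-6.14), Pdpn (-4.91), Acta2 (-5.61), Myl9 (-5.09) and Tnc (-8.50). Few or no reads of the set are left in the thinned siAATF libraries, so its genes pass the filter mainly through siControl. The calls and larger falls after thinning therefore add no separate support. With at least 10 counts in every library, 4 of the genes could be tested and 4 were called lower, with 10 of 13 further fibroblast genes, 9 of 11 further contractile genes and 5 of 9 relatives called, fewer genes being tested. Library size alone moved the median of all mouse genes to -1.30 and the share of higher calls among all calls from 55.0% to 9.33%. Of all 18018 mouse genes, 2593 were called lower in the main fit and 7267 with library size alone. The number was 3065 by limma-voom, 2940 by DESeq2, 2742 with RLE and 3023 with upper-quartile scaling. At the unadjusted threshold 13.1% were lower, and after thinning 1811 of 9665 were called lower. Leaving out 1 library gave 8 to 9 genes lower and 0 higher (Fap could not be tested without siControl replicate 3), 16 to 17 further fibroblast genes, 11 to 14 further contractile genes and 6 to 9 relatives. Where a group is left with 2 libraries, its spread is estimated with that of the other group.

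With another library size the values of all mouse genes moved together, from a median of 0.50 to 4.66 with all gene counts and 5.14 with the mesenchymal counts. Relative to these the median of the 10 genes was -4.46, -4.46 and -4.47, a likeness that follows from that common shift. With all gene counts 1 gene was called lower and 1 higher, and the log2 fold changes of Fap (0.22), Lum (0.83), Myl9 (1.65), Pdgfra (0.84), Pdpn (0.18) and Tagln (1.46) turned. With the mesenchymal counts, 1 was called lower and 2 higher, those of Fap (0.77), Lum (1.14), Myl9 (1.58), Pdgfra (1.14), Pdpn (0.57) and Tagln (1.67) turned, and 13 relatives were called. Against all gene counts, leaving out 1 library gave 1 to 2 calls among the 10 genes.

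Same-numbered libraries of the groups deviated together with correlations of 0.11, 0.15 and -0.02, and siControl replicate 1 was closer to siAATF replicate 3 (0.15) than to replicate 1, so the numbers are not treated as pairs. With a replicate block 9 of the 10 genes were called lower (Tagln lost its call, adjusted p = 0.0630), and against all gene counts 3 were called, all of them lower (Postn, Acta2 and Tnc).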
